A study of Homo sapiens with 6 samples.

Results

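The HOX genes of the 4 HOX clusters were examined in C4-2 cells, a prostate cancer line derived from LNCaP. Members were taken by name, as HOX followed by a cluster letter (A, B, C or D) and a number. Of the 28503 lines of the deposited expression table, 38 are described here: 11 in HOXA, 9 in HOXB, 9 in HOXC and 9 in HOXD. The name rule did not use their values, but the set was chosen with earlier results of these data known. Polyadenylated RNA had been sequenced from cells at passages 10 to 15 that received vehicle, GSK126 (an inhibitor of the catalytic activity of EZH2), astemizole (an antihistamine reported to disrupt the pairing of EZH2 with EED), lentivirus with a scramble shRNA, or lentivirus with 1 of 2 EZH2 shRNAs. The sources used here do not give doses or durations. Each condition has 1 library, which makes 6 with the 2 hairpins, while the authors' table holds 5 columns, of which 1 stands for the EZH2 knockdown. Values are given as FPKM, a fragment count divided by transcript length and library total. Levels can thus be set beside each other between genes. Between columns they also depend on how each column is scaled. No condition had a second value, and no test or standard deviation can therefore be given for any difference below.

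HOX genes encode homeodomain transcription factors that give cells their position along the body axis and along limbs and the urogenital tract. The 4 clusters lie on chromosomes 7, 17, 12 and 2 and arose by duplication, so genes with the same number in different clusters are paralogs. Low-numbered genes are switched on early and toward the head, and high-numbered genes late and toward the tail, with posterior members patterning the prostate and the rest of the urogenital tract. In cells that do not use them, HOX clusters are classical targets of Polycomb repressive complex 2, whose EZH2 subunit methylates histone H3 at lysine 27, and Trithorax proteins of the MLL family keep active HOX genes on.

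The targeted gene was examined first. EZH2 FPKM was 26.5 in the vehicle column, 17.5 under GSK126, 9.48 under astemizole, 24.6 for the scramble and 3.35 for the knockdown. The knockdown column was the lowest of the 5, and the astemizole column the next lowest. All 6 luminal prostate markers, among them KLK3 and KRT18, were at 30.0 FPKM or more in every column. Of 4 basal markers, only KRT14 reached 1 FPKM in any column. The 10 liver markers summed to 181 FPKM under GSK126 and 21.0 in the vehicle column. Their sums were 5.69 under astemizole, 2.09 for the scramble and 3.23 for the knockdown. Of 6 blood cell markers only LYZ reached 1 FPKM in any column, with 7.57 under GSK126 and 1.03 in the vehicle column. The other blood cell markers stayed at or below 0.418 FPKM. Fibroblast markers summed to between 1.40 and 3.28 FPKM over the 5 columns, and endothelial markers to at most 0.836. What part the RNA behind the liver markers and LYZ has in the HOX values of the GSK126 and vehicle columns was not tested. In bulk RNA fewer cells of a type and less RNA per cell cannot be told apart.

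Among the genes described, levels ran from genes listed at 0 throughout to HOXA10 at 31.5 FPKM. Of the 38 genes, 17 reached 1 FPKM in some column, 16 were above 0 but under 1 FPKM in every column, and 5 were listed at 0 in all 5 columns. By cluster, 6 of 11 HOXA genes, 3 of 9 HOXB genes, 7 of 9 HOXC genes and 1 of 9 HOXD genes reached 1 FPKM. By position, none of the 8 genes numbered 1 to 3 did, against 9 of 15 numbered 4 to 8 and 8 of 15 numbered 9 to 13. Within the set described, expression in C4-2 cells thus lay in middle and posterior HOXA and HOXC genes, with 3 HOXB genes and 1 HOXD gene.

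**Figure D1:**
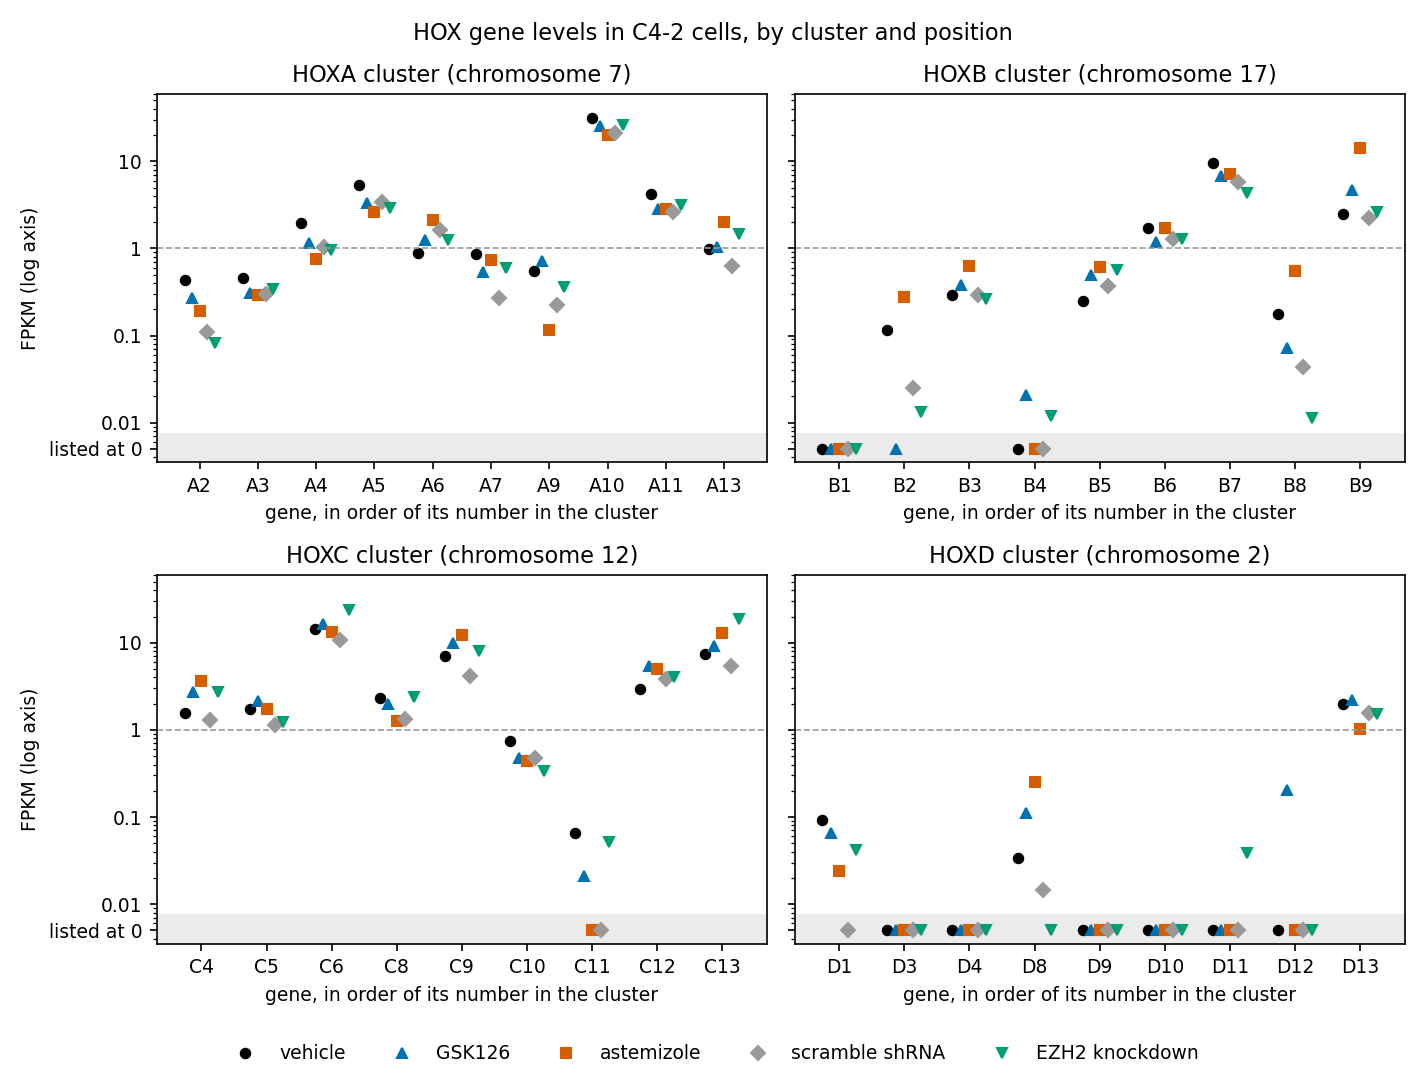
FPKM of the HOX genes reported here (log axis, with values listed at 0 in the grey band) in the order of their numbers within each cluster, with 1 symbol for each of the 5 columns and a dashed line at 1 FPKM. HOXA10, HOXC6, HOXB7 and HOXC13 have the highest control levels, genes numbered 1 to 3 stay below the line, and HOXD13 is the only HOXD gene above it.

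The 5 silent genes were HOXB1 and, in the HOXD cluster, HOXD3, HOXD4, HOXD9 and HOXD10. A value of 0 in a table without counts can be a failed estimate, and most exonic bases of HOXD3 (62.2%) and HOXD4 (80.5%) are shared with another gene on the same strand in GENCODE release 29. How reads there were assigned was not tested. HOXB1, which patterns the hindbrain, and HOXD9 have no such overlap there. HOXD11 was listed at 0 except for 0.0389 FPKM in the knockdown column, HOXD12 except for 0.205 with GSK126, and HOXB4 except for 0.0210 with GSK126 and 0.0119 in the knockdown column. With silence read as under 0.1 FPKM in all 5 columns, 9 genes were silent.

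The promoter windows below were taken to set the highest HOXA gene, a pair of HOXC genes and the only expressed HOXD gene beside HOXD neighbours listed at 0. They are the 250 bases before the RefSeq start (build GRCh38.p14, a later build than the hg19 the authors used), written 5′ to 3′ on the gene's strand, with CpG dinucleotides in capitals. CpG-dense promoters are the usual landing ground of both Polycomb and Trithorax complexes.
HOXA10, upstream of its 2 starts (chr7:27179862-27180111, minus strand): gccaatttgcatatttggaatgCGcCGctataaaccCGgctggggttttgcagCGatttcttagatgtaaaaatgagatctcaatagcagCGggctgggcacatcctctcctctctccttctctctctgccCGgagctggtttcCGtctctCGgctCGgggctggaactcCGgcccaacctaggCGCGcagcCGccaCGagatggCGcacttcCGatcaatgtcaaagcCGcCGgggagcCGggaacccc
HOXC4 and HOXC5, same start (chr12:54016638-54016887, plus strand): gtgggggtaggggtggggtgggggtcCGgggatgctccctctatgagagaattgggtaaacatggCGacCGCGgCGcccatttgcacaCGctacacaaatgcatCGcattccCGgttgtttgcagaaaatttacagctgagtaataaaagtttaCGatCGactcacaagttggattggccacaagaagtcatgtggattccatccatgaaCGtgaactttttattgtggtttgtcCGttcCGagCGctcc
HOXD13 (chr2:176092471-176092720, plus strand): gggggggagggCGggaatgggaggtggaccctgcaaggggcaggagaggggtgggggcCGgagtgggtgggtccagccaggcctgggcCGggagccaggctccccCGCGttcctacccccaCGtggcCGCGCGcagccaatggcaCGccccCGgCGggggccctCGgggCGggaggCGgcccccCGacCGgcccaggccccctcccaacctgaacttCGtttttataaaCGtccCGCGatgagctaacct
HOXD10 (chr2:176116528-176116777, plus strand): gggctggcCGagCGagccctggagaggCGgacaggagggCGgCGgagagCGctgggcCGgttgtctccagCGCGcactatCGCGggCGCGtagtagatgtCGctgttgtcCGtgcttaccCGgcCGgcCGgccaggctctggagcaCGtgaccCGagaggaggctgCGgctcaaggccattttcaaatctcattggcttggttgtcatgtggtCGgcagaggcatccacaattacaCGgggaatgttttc
HOXD4 (chr2:176151300-176151549, plus strand): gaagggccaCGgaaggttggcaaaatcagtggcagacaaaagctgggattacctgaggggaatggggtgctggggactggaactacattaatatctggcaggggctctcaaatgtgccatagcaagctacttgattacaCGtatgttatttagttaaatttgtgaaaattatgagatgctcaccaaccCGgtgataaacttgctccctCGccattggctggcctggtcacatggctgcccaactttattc

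HOXD13, the expressed HOXD gene, had 21 CpGs in its window. HOXD10 and HOXD4, both listed at 0, had 23 and 4, and for HOXD3 and HOXD4 the 0 may be a failed estimate. HOXA10 had 19 CpGs in the window shown and 24 before its other start, and the shared HOXC4 and HOXC5 window had 14. Over the 20 members with an entry (26 distinct windows) the median was 19.5, against 11 over all 34943 distinct windows of the RefSeq table. Genes at 1 FPKM or more had a median of 22.5 over 8 windows. Those above 0 and under 1 FPKM had 17.5 over 14, and those listed at 0 had 14 over 4. The ranges overlapped (11 to 40, 0 to 31 and 4 to 23). The 14 windows belong to 8 genes, and HOXA3 alone holds many of them, with 0 to 26 CpGs. The other genes of that class had from 8 (HOXA2) to 31 (HOXD1). The median of that class therefore leans on HOXA3, and the class medians do not rank the classes gene by gene. The TATA motif TATAAA, searched on both strands, was in both HOXA10 windows, in those of HOXD13 and HOXA9 and in a single HOXA3 window. These were 19.2% of the HOX windows, against 10.8% of all windows. Members without an entry include HOXA5, HOXB2 to HOXB9, HOXC6, HOXC8 to HOXC13 and HOXD9.

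In the HOXA cluster, HOXA10 dominated every column. HOXA10, which patterns the uterus and prostate, was at 31.5 FPKM in the vehicle column, 25.5 under GSK126, 20.1 under astemizole, 21.3 for the scramble and 25.8 for the knockdown. It held between 62.8% and 68.6% of the summed HOXA FPKM in each column, and its vehicle value was the highest of the 5. HOXA11, its posterior neighbour, was at 4.23, 2.81, 2.80, 2.61 and 3.15 FPKM in that column order, again highest with vehicle and close to level elsewhere. HOXA5 was at 5.27, 3.36, 2.59, 3.40 and 2.90 FPKM, and HOXA4 at 1.95, 1.14, 0.756, 1.03 and 0.956, both highest with vehicle and lowest with astemizole. HOXA13, which patterns the hindgut, genital tubercle and limb tips, was at 0.989, 1.04, 1.99, 0.625 and 1.46 FPKM, highest with astemizole. HOXA6 was at 0.874, 1.25, 2.13, 1.64 and 1.24 FPKM, lowest with vehicle. In GENCODE release 29, 39.3% of the exonic bases of HOXA6 and 31.1% of those of HOXA11 lie opposite a gene on the other strand, and 31.0% of those of HOXA4 are shared with a gene on its own strand.

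Of the HOXB genes described, HOXB7 had the highest level except with astemizole. HOXB7 was at 9.62 FPKM in the vehicle column, 6.82 under GSK126, 7.06 under astemizole, 5.80 for the scramble and 4.35 for the knockdown. HOXB9, a more posterior member, was at 2.45, 4.73, 14.2, 2.23 and 2.62 FPKM. The astemizole value stood apart from all others, GSK126 came second, and the 2 controls and the knockdown lay close together. HOXB6 was at 1.70, 1.20, 1.73, 1.27 and 1.29 FPKM. HOXB9, HOXB7 and HOXB8 have no exonic overlap with another gene in GENCODE release 29.

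The HOXC cluster had the most expressed members. HOXC6, known to be high in prostate cancer, was at 14.5 FPKM in the vehicle column, 16.4 under GSK126, 13.4 under astemizole, 10.9 for the scramble and 24.0 for the knockdown. HOXC13, which controls hair and nail keratins, was at 7.35, 9.28, 13.03, 5.47 and 18.7 FPKM. Both had their highest value in the knockdown column and their lowest with scramble shRNA. HOXC9 was at 7.04, 9.83, 12.4, 4.19 and 8.05 FPKM, highest with astemizole. HOXC12 was at 2.95, 5.44, 4.96, 3.83 and 4.01 FPKM, and vehicle was its lowest column. HOXC4 was at 1.56, 2.72, 3.66, 1.30 and 2.76 FPKM, so that both controls lay below all perturbed columns. HOXC5 was at 1.73, 2.15, 1.73, 1.14 and 1.23 FPKM, and HOXC8 at 2.30, 2.00, 1.26, 1.34 and 2.40. HOXC4 and HOXC5 share the RefSeq start printed above, and in GENCODE 17.8% of the exonic bases of HOXC4, 43.4% of those of HOXC5 and 15.7% of those of HOXC6 are shared with neighbours on the same strand. For HOXC13, 7.10% of the exonic bases lie opposite its antisense gene HOXC13-AS. The sources used here do not say how reads were divided between these genes, and their separate values are uncertain to that extent.

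HOXD13, which patterns digits and the urogenital sinus, was at 1.97 FPKM in the vehicle column, 2.19 under GSK126, 1.03 under astemizole, 1.58 for the scramble and 1.51 for the knockdown. It made up between 79.0% and 99.1% of the summed HOXD FPKM, and its lowest value was with astemizole. Its paralogs HOXC13 and HOXA13 had their lowest value with scramble shRNA instead. Of the paralogs in position 9, HOXC9 and HOXB9 were expressed, HOXA9 reached at most 0.724 FPKM and HOXD9 was listed at 0. In position 10, HOXA10 led all HOX genes described, HOXC10 reached at most 0.738 FPKM and HOXD10 was listed at 0.

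Low members that reached 0.3 FPKM in a column are given in the order vehicle, GSK126, astemizole, scramble shRNA and knockdown. HOXA2 was at 0.439, 0.270, 0.190, 0.111 and 0.0822 FPKM, and HOXA3 at 0.457, 0.307, 0.288, 0.299 and 0.337. Both were highest with vehicle, as was HOXA7 at 0.870, 0.529, 0.726, 0.268 and 0.591 FPKM, although 62.5% of the exonic bases of HOXA7 overlap genes on the opposite strand in GENCODE. HOXA9, a gene of myeloid leukaemia, was at 0.545, 0.724, 0.114, 0.224 and 0.365 FPKM, lowest with astemizole. HOXB3 was at 0.291, 0.384, 0.624, 0.291 and 0.262 FPKM, HOXB5 at 0.251, 0.5004, 0.606, 0.366 and 0.563, and HOXB8 at 0.175, 0.0714, 0.552, 0.0431 and 0.0114. HOXC10 was at 0.738, 0.481, 0.436, 0.475 and 0.338 FPKM, highest with vehicle. Another 7, HOXB2, HOXB4, HOXC11, HOXD1, HOXD8, HOXD11 and HOXD12, stayed at or below 0.276 FPKM. HOXB2, HOXB3, HOXB5, HOXB8 and HOXD8 each had their highest value with astemizole.

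The number of reads behind these low values may be small. FPKM holds no read totals. Genes under 0.5 FPKM in both columns piled up at ratios to vehicle of 0.948 for GSK126, 1.05 for astemizole and 0.857 for scramble shRNA. These ratios were taken as what 1 read is worth in each column relative to vehicle, which was not tested. After division by these factors, the values of 7 of the 29 HOX genes with 3 or more non-zero values in those 4 columns lay within 0.09 of whole multiples of 1 unit per gene, with at most 40 units in a column. For HOXB8 the multiples were 7 with vehicle, 3 with GSK126, 21 with astemizole and 2 with scramble shRNA; for HOXA9 they were 25, 35, 5 and 12; for HOXA2 17, 11, 7 and 5; and for HOXB5 10, 21, 23 and 17. If a unit is 1 read, it was worth between 0.0218 and 0.0460 FPKM with vehicle in these 7 genes, and differences between such columns rest on few reads. The limits of this search were set after the values were seen. Up to 10 unit sizes were tried for each gene, and how many genes would fit without such units was not tested.

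Ratios to the control were computed for the 17 genes at 1 FPKM or more in a column, on the log2 scale, after 1 FPKM had been added to both values. The same filter left 12929 genes of the whole table, whose share past 2-fold is given for each comparison below. Each of the 17 HOX genes reached that level in 3 or more columns, so none was included through 1 column alone. HOXA13 reached it only in the 3 perturbed columns, with 0.989 FPKM for vehicle and 0.625 for scramble shRNA. Its ratios of perturbed to control columns were therefore bound to be above 0, and the HOXA counts below include it. The added 1 FPKM understates the differences of low genes.
With GSK126 against vehicle, which asks what differs when EZH2 catalysis is inhibited, no HOX gene was 2-fold higher or lower. In the background 1.05% of the genes compared were 2-fold higher and 0.951% lower. The median log2 ratio was 0.10, against -0.04 over all genes compared. HOXB9 (0.73), HOXC12 (0.71) and HOXC4 (0.54) had the highest ratios, and HOXA5 (-0.53), HOXA4 (-0.46) and HOXA11 (-0.46) the lowest. By cluster, 6 of 7 HOXC genes were above 0 with a median of 0.30, and 4 of 6 HOXA genes were below 0 with a median of -0.38. Over all genes compared 45.6% were above 0 and 54.3% below, so the HOXA count is close to the share of all genes.
The HOXA direction depended on the control. Against scramble shRNA the HOXA median was 0.08, while the HOXC median was 0.56 with 7 of 7 genes above 0, as were 58.4% of all genes compared. HOXC9 then passed 2-fold at 1.06, where 1.52% of the genes compared were 2-fold higher and 0.394% lower. After rescaling every column to the same sum, which moved the median of all genes from -0.04 to 0.15, the HOXC median was 0.51 and the HOXA median -0.20.

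With astemizole against vehicle, HOXB9 was the 1 HOX gene of 17 (none lower) past 2-fold, where 3.53% of the genes compared were 2-fold higher and 5.49% lower. Its log2 ratio was 2.14, a level 5.80 times that with vehicle, and it was 2.24 against scramble shRNA. The other expressed HOXB genes described did not follow, HOXB7 with -0.40 and HOXB6 with 0.02. HOXB8, which lies next to HOXB9 and stayed under 1 FPKM, had its highest value here too. A count of 1 in 17 genes is close to the background share, and HOXB9 is given for its size. HOXC4 had 0.87, HOXC13 0.75, HOXC9 0.74 and HOXC12 0.59, while HOXC8 had -0.55, HOXC6 -0.11 and HOXC5 -0.00040. The HOXC genes were therefore mixed, with 4 of 7 above 0, against 44.6% of all genes compared, and a median of 0.59. In HOXA, HOXA5 (-0.81), HOXA4 (-0.75), HOXA10 (-0.63) and HOXA11 (-0.46) were lower and HOXA6 (0.74) and HOXA13 (0.59) higher. HOXD13 had -0.55. The median of the 17 genes was -0.00040, against -0.06 over all genes compared.
Against scramble shRNA 4 HOX genes were 2-fold higher with astemizole, HOXB9, HOXC9 (1.37), HOXC13 (1.12) and HOXC4 (1.02), where 4.57% of the genes compared were higher and 3.9% lower. After rescaling every column to the same sum, 2 of the 4 remained past 2-fold, HOXB9 at 2.15 and HOXC9 at 1.22. In FPKM the HOXA genes no longer leaned one way with that control. There 3 of 6 were above 0, against 52.1% of all genes, and the median was -0.0045, with HOXA10 at -0.08 and HOXA11 at 0.08. After the rescaling 2 of 6 were above 0, with a median of -0.20 against -0.17 over all genes compared. HOXA5 (-0.29) and HOXA4 (-0.21) were below 0 with both controls.

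With the EZH2 knockdown against scramble shRNA, which asks what differs when EZH2 itself is depleted, 2 of 17 HOX genes were 2-fold higher and none lower. In the background 1.93% of the genes compared were 2-fold higher and 5.1% lower. Both were HOXC genes: HOXC13 had a log2 ratio of 1.61, a level 3.42 times that with scramble shRNA, and HOXC6 had 1.07, a level 2.21 times. HOXC9 had 0.80, HOXC4 0.71, HOXC8 0.54, HOXC5 0.06 and HOXC12 0.053, so that all 7 HOXC genes were above 0, with a median of 0.71. Over all genes compared 52.7% were above 0, with a median of 0.03. HOXA genes had a median of 0.07 (3 of 6 above 0). The highest was HOXA13 at 0.60, which passed the filter only through the perturbed columns. HOXB7 had -0.35, HOXB9 0.17 and HOXD13 -0.04.
Against vehicle HOXC13 was still past 2-fold at 1.24, and HOXC6 was not, at 0.69; in that comparison 1.93% of the genes compared were 2-fold higher and 7.25% lower. The HOXC median was then 0.34 with 6 of 7 genes above 0, against 42.8% of all genes compared, and HOXC5 below, at -0.29. HOXB7 had -0.99 with vehicle as the control. After rescaling every column to the same sum, the HOXC median against scramble shRNA was 0.78. HOXC13 had log2 ratios of 0.30 with GSK126 and 0.75 with astemizole, and HOXC6 had 0.17 and -0.11, so neither was past 2-fold with an inhibitor against vehicle. The neuroendocrine markers SCG3 and SYP were also highest in the knockdown column, at 3.45 and 4.63 FPKM against 0.0335 and 0.510 with scramble shRNA, while CHGA was at 0.0158 FPKM or 0. ENO2, the other marker of that list, was lowest in the knockdown column, at 0.895 FPKM against 2.83 with scramble shRNA, a log2 ratio of -1.02. The 4 markers of that list summed to 8.98 FPKM in the knockdown column and to between 1.89 and 4.20 in the other columns, and their part in the HOXC values was not tested.

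**Figure D2:**
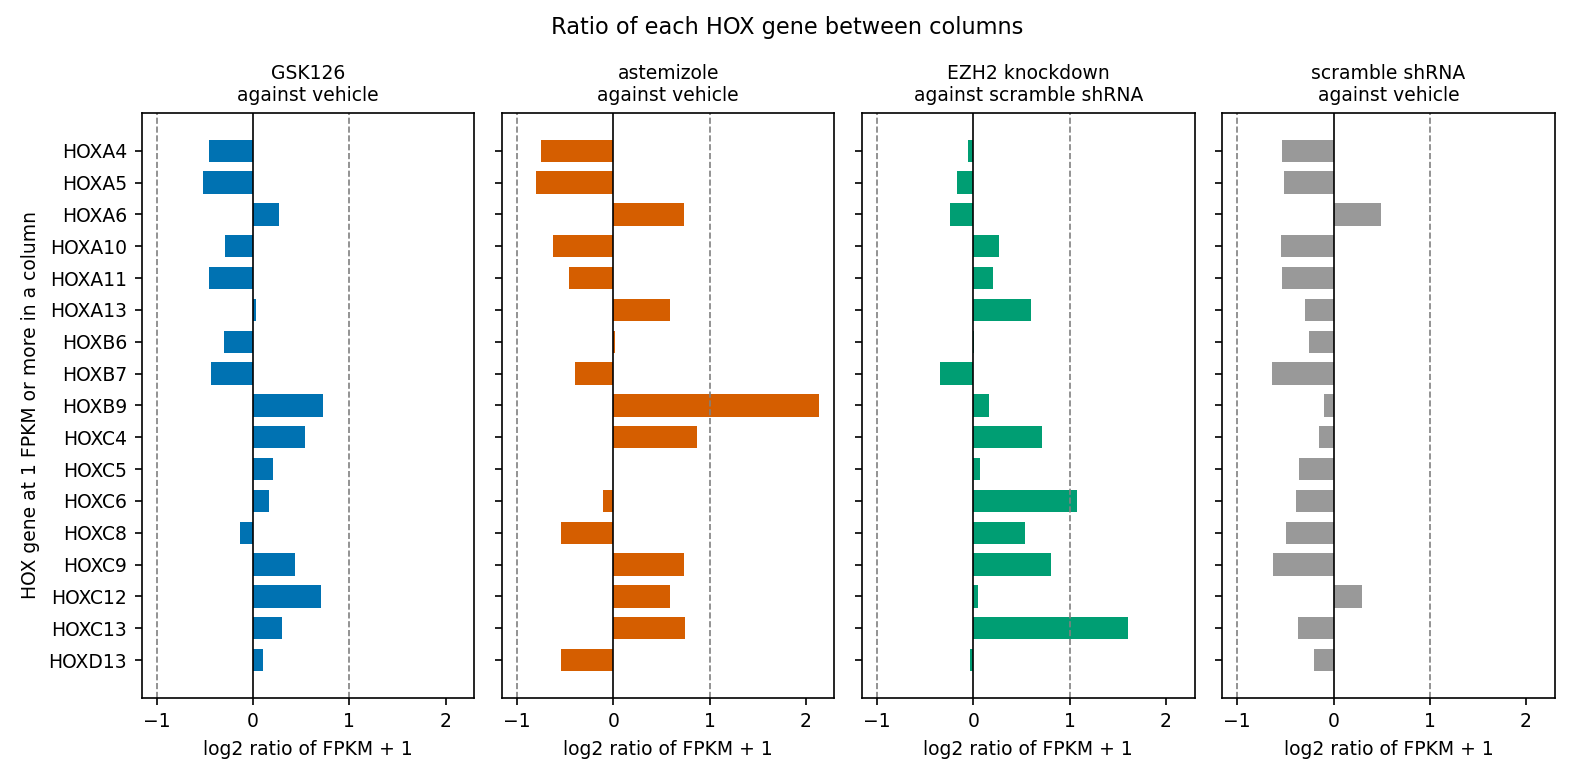
Log2 ratio of FPKM + 1 for the 17 HOX genes at 1 FPKM or more in a column, with 1 panel for each treated column against its control and 1 for the 2 control columns, and dashed lines at 2-fold. HOXB9 passes the line with astemizole and HOXC6 and HOXC13 with the knockdown, and 15 of 17 bars between the controls point to lower values with scramble shRNA.

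The 2 control columns differed in HOX genes. With scramble shRNA 15 of the 17 were below their vehicle level, with a median log2 ratio of -0.37 against -0.11 over all genes compared, of which 65.1% were below 0. HOXB7 (-0.64) and HOXC9 (-0.63) had the lowest ratios. None was 2-fold lower or higher, as were 0.851% and 0.17% of the genes compared. HOXA6 (0.50) and HOXC12 (0.29) were higher with scramble shRNA. After rescaling every column to the same sum, 13 of 17 were below 0, with a median of -0.21 against 0.13 over all genes. The gap between the controls in FPKM was as large as many of the ratios above. HOXB9 with astemizole and HOXC13 with the knockdown were the 2 results past 2-fold with both controls.

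**Figure D3:**
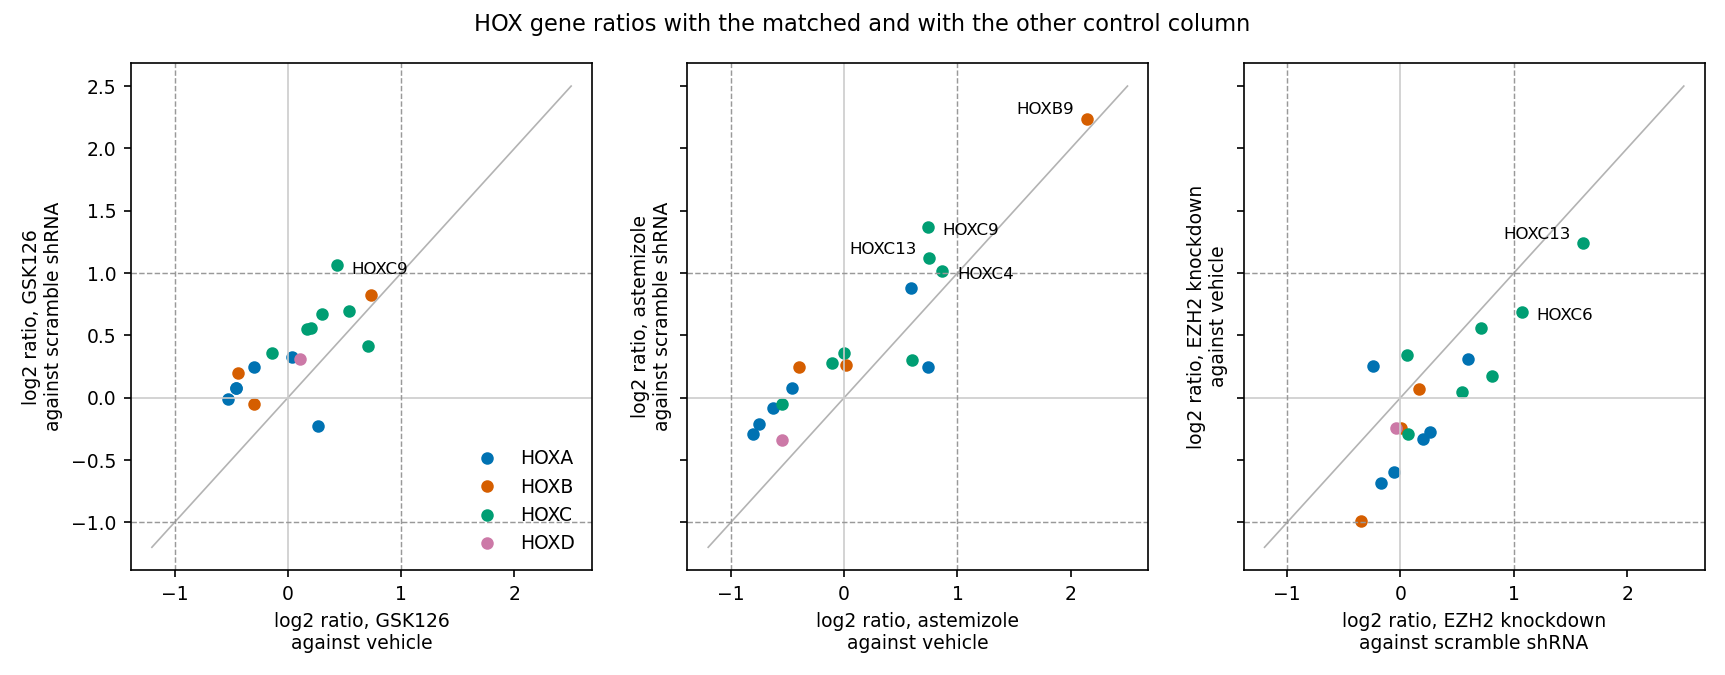
Log2 ratio of FPKM + 1 for the 17 HOX genes with the matched control (horizontal axis) and with the other control column (vertical axis), coloured by cluster, with a grey line of equality and dashed lines at 2-fold. HOXB9 with astemizole (2.14 and 2.24) and HOXC13 with the knockdown (1.61 and 1.24) lie past 2-fold on both axes, and HOXC6, HOXC9, HOXC4 and, with astemizole, HOXC13 on 1 axis only.

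Summed over the 38 genes, HOX FPKM was 102 in the vehicle column, 102 under GSK126, 109 under astemizole, 72.2 for the scramble and 110 for the knockdown. HOXA held 46.4% of the sum with vehicle and 44.3% with scramble shRNA, against 36.7% with GSK126, 29.3% with astemizole and 34.2% in the knockdown column. HOXC held 37.3% and 39.6% in the controls, against 47.3%, 46.6% and 56.0%. These shares do not depend on how a column is scaled. The 2 controls were close to each other in them, and all 3 perturbed columns had a lower HOXA and a higher HOXC share. A share of a sum also falls when another part is higher. The shares also rest on few genes. HOXA10 held between 62.8% and 68.6% of each HOXA sum, and HOXC6 between 26.3% and 39.0% of each HOXC sum. The HOXA sum was 47.5 FPKM in the vehicle column, 37.5 under GSK126 and 32.0 under astemizole, so it was lower than vehicle with both inhibitors. For the scramble it was 32.0, and neither inhibitor column was below that. In the knockdown column it was 37.6, so it was higher there than for the scramble. The HOXC sum was 38.3, 48.3 and 50.9 FPKM in the vehicle and inhibitor columns, and 61.6 in the knockdown column against 28.6 for the scramble. The HOXB genes described held 23.0% with astemizole, where HOXB9 alone made up 56.7% of their summed FPKM, and between 8.29% and 14.3% elsewhere.

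**Figure D4:**
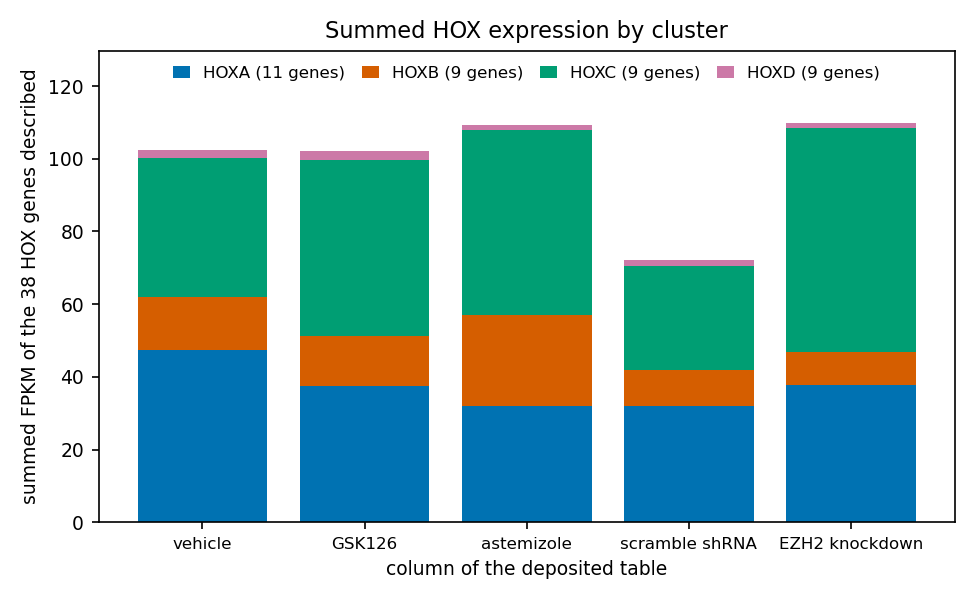
Summed FPKM of the 38 HOX genes in each column, stacked by cluster. The sum is lowest with scramble shRNA (72.2), the HOXC segment is tallest in the knockdown column (61.6) and the HOXB segment with astemizole (25.1).

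Of 12 long noncoding RNAs of the HOX clusters found by name, 4 reached 1 FPKM, and none passed 2-fold in any of the 3 comparisons with the matched control. HOTAIRM1, of the HOXA cluster, was at 4.68 FPKM in the vehicle column, 3.31 under GSK126, 9.84 under astemizole, 2.67 for the scramble and 1.73 for the knockdown. HOXC-AS5 was at 4.48, 4.29, 9.60, 3.85 and 6.69 FPKM, with its highest value under astemizole and the knockdown next. HOXA11-AS, antisense to HOXA11, was at 1.88, 2.10, 3.13, 1.72 and 1.92 FPKM, highest where HOXA11 was at 2.80. The sources used here do not say whether the libraries kept strand, so reads of a gene and its antisense partner may not be separated. That limit also holds for HOXC13, with 7.10% of its exonic bases opposite HOXC13-AS. HOXB-AS5 had the highest level of the 4, at 31.6, 19.4, 21.4, 16.9 and 14.4 FPKM, highest with vehicle. With the other control, HOTAIRM1 (1.56) and HOXC-AS5 (1.13) were 2-fold higher with astemizole, and HOTAIRM1 (-1.06) and HOXB-AS5 (-1.08) 2-fold lower in the knockdown column; 4.57% of all genes compared were 2-fold higher and 7.25% 2-fold lower in these comparisons. The medians with the matched control were -0.22 with GSK126, 0.73 with astemizole and -0.06 with the knockdown. HOTAIR, of the HOXC cluster, was listed at 0 except for 0.0101 FPKM in the knockdown column.

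Of 5 genes that flank the HOXC cluster, 1 had a log2 ratio above 0.1 in the knockdown column and none passed 2-fold higher. On its HOXC13 side CALCOCO1 had a log2 ratio of -0.04 and ATP5G2, a subunit gene of the mitochondrial ATP synthase, 0.45. On its HOXC4 side the DNA glycosylase gene SMUG1 had -0.45, CBX5, which encodes the heterochromatin protein HP1 alpha, -1.31 and the splicing factor gene HNRNPA1 -0.50. With astemizole HNRNPA1 had -1.02. Of the 12 genes beside the 4 clusters that were compared, these were the 2 ratios past 2-fold, both lower, and no gene passed it with GSK126. Over all genes compared 5.49% were 2-fold lower with astemizole and 5.1% with the knockdown, so 1 of 12 is close to the background. Their medians were -0.09 with GSK126, -0.10 with astemizole and -0.14 with the knockdown. Gene order is that of RefSeq on GRCh38.p14.

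For the gene lists that follow, the shares of all genes compared that were 2-fold higher and lower were 1.05% and 0.951% with GSK126, 3.53% and 5.49% with astemizole, and 1.93% and 5.1% with the knockdown. HOX proteins bind DNA with PBX and MEIS cofactors, and 6 of 9 such genes reached 1 FPKM. None passed 2-fold in the 3 comparisons, and the medians were 0.19 with GSK126, -0.08 with astemizole and 0.26 with the knockdown. PBX2 was at 10.1, 13.3, 10.1, 10.1 and 14.7 FPKM in the order vehicle, GSK126, astemizole, scramble shRNA and knockdown. MEIS1 was low, at 1.71, 0.694, 0.453, 0.695 and 1.01 FPKM, and was highest with vehicle. Of 12 Trithorax regulators, the H3K27 demethylase gene KDM6B was 2-fold higher in the knockdown column (1.67) and the chromatin reader gene PSIP1 2-fold lower (-1.23), and none passed 2-fold with GSK126 or astemizole. The Trithorax medians were 0.02 for GSK126, -0.10 for astemizole and 0.14 for the knockdown. Of 20 Polycomb genes, whose medians were -0.21, -0.17 and -0.12 in that order, none passed 2-fold with GSK126. With astemizole 2 were 2-fold lower and none higher, RBBP7 at -1.12 and EZH2 at -1.39, where 5.49% of all genes compared were lower, a share that 2 of 20 is near. In the knockdown column 3 were lower, EZH2 at -2.55, PHF19 at -1.25 and SUZ12 at -1.04, and 2 higher, JARID2 at 1.10 and CBX6, a Polycomb chromodomain gene, at 1.01, where 5.1% of all genes compared were lower and 1.93% higher. Of 6 retinoic acid genes compared, 1 passed 2-fold, the retinaldehyde dehydrogenase gene ALDH1A3 with GSK126 at 1.60, and the medians were 0.07, 0.20 and 0.27. Of 13 other homeobox genes related to HOX, 4 were compared and none passed 2-fold, with medians of -0.35, -0.35 and -0.37. MNX1 had the highest level among these, at 4.17 FPKM with vehicle. Its log2 ratio was -0.82 for GSK126, -0.61 for astemizole and -0.58 for the knockdown.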

How the data were processed

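The authors deposited 1 table of FPKM values with 28503 gene names. TopHat2, Cuffdiff and hg19 were used, per the submitters' processing notes, which hold no versions. The sources used here give no annotation, filters, normalization options or strand setting, and do not say how the knockdown column was made from the 2 hairpin libraries. FPKM depends on the other genes of a library, so large changes elsewhere shift all ratios. After rescaling every column to the same sum, the median log2 ratio of all genes compared moved from -0.04 to 0.15 with GSK126 against vehicle. It moved from -0.06 to -0.03 with astemizole against vehicle and from 0.03 to 0.0011 with the knockdown against scramble shRNA. Between scramble shRNA and vehicle it moved from -0.11 to 0.13.

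From these values, 27 names turned into dates and 1657 short RNA names were left out, and genes that reached 1 FPKM in any column were kept (12929). Ratios are log2 of FPKM + 1 over FPKM + 1, and 2-fold or more was counted. With 1 value per condition there is no test. The ratio step was tested on simulated data with changes larger than 2-fold in genes well above 1 FPKM. That run does not cover changes near 2-fold or genes at lower levels. Read totals are not in the table, so depth limits the precision to an unknown degree.

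The HOX members, the 7 other gene lists and the 7 marker lists were chosen with earlier results of these data known. Members are named by their level class, those at 1 FPKM or more with all values, those under it with their values where 1 column reached 0.3 FPKM, and list genes past 2-fold with their ratio. HOXC-AS5, MNX1, MEIS1, HOTAIR and the other list genes named below 2-fold, and the genes at the ends of a range of ratios, were chosen after their values were seen. The settings tried were a pseudocount of 0.1 FPKM, a filter of 0.1 FPKM, columns rescaled to one sum, ratios centred on the median, and the other control column. Promoters are from RefSeq (GRCh38.p14), with 20 of 38 members matched, and exon overlaps are from GENCODE 29. Python 3.11.15, numpy 2.4.6, pandas 2.3.3 and matplotlib 3.10.9 were used. The values of a few genes are not reported here.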

Additional observations from a re-analysis of the deposited data

How the results depend on the processing

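No paired analysis was possible because each condition has 1 column. No HOX gene past 2-fold changed direction under any of the 5 settings. With a pseudocount of 0.1 FPKM, 3 HOX genes were 2-fold higher with astemizole (HOXB9, HOXA6 and HOXC4) and 1 lower (HOXA4), and 4 were higher in the knockdown column (HOXC13, HOXC6, HOXA13 and HOXC4). At that setting 5.8% of all genes compared were 2-fold higher and 7.9% lower with astemizole, and 3.77% higher with the knockdown. With the other control column, 1 gene was 2-fold higher with GSK126, 4 with astemizole and 1 in the knockdown column, as were 1.52%, 4.57% and 1.93% of all genes compared, and the medians were 0.33, 0.27 and 0.046. The GSK126 median was 0.27 after rescaling to one sum, and the knockdown median 0.053 with a filter of 0.1 FPKM, where 29 HOX genes entered. Silent genes numbered 9 at under 0.1 FPKM in all columns and 21 at under 1 FPKM. The other counts were within 1.5 times of those given and the other medians within 0.1. Depth is unknown, and 1 column per condition means that no difference has a replicate check.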
